A study of Homo sapiens with 30 samples.

Results

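The WNT genes described here were 44 of the 52329 features of an expression array study of WI-38, a widely used human line of diploid fibroblasts from lung. A gene was a member when the only gene symbol of a feature in the platform's probe table was WNT, FZD, DKK, SFRP or RSPO followed by a number, or was LRP5, LRP6, FRZB, WIF1, AXIN2 or LGR5. The rule used no measured value. It found 19 WNT ligands, 10 receptors of the FZD and LRP families, 10 secreted inhibitors (of the DKK and SFRP families, with FRZB and WIF1), 4 R-spondins and AXIN2. Each member had 1 feature. FZD8 was left out because its feature carries a second symbol, and FZD3 and LGR5 were not analysed here.

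WNT proteins are lipid-modified secreted ligands that bind Frizzled (FZD) receptors. Together with the coreceptors LRP5 and LRP6 they stop the breakdown of beta-catenin, which then activates genes through TCF and LEF factors. Some ligands, WNT5A among them, act mainly through ROR and RYK receptors without beta-catenin. DKK proteins bind the LRP coreceptors, SFRP proteins, FRZB and WIF1 bind the ligands themselves, R-spondins keep receptors at the surface, and AXIN2 is a target gene that feeds back on beta-catenin. Lung fibroblasts make WNT ligands and inhibitors that act on neighbouring epithelium, and WNT16 has been described as a gene of senescent fibroblasts.

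Senescence is a lasting exit from the cell cycle, and the study followed it along a pair of courses, RAF and replicative. Per the labels and the design text, cells of the RAF course carried a RAF gene inducible by doxycycline and were given it at 100 ng/ml. They were sampled at T0 and after 12, 24, 48, 72 and 96 h. Cells of the replicative course were exhausted by proliferation under 21% oxygen and sampled at T0 and after 144, 264, 432, 624, 792, 1008, 1368 and 2112 h. All cells were of the WI-38 line, and the labels give growth at 3% oxygen and 5% carbon dioxide for every sample. Each of the 15 labelled groups held 2 arrays, 30 in all. Which RAF gene the construct carries, and whether the cells came from 1 clone, is not given in the sources used here. No later RAF group lacked doxycycline, so the oncogene, doxycycline and time cannot be told apart. The oxygen at replicative T0 is not given apart from that of the later hours. Any change of oxygen after that label cannot be told apart from time. The RAF replicates are called biological in the design text. For the replicative pairs no source says so, and p-values there may measure only technical spread.

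Some labels did not match the genes that mark growth and RAF output. The mean log2 level of 6 mitotic genes was lowest in the arrays labelled RAF T0, at 5.16, against 8.06 at RAF 12 h and 7.69 at RAF 96 h. In the replicative course it was 8.44 at T0, 8.06 at 624 h and 7.94 at 2112 h, and between 5.46 and 6.84 at the other 6 labels. The mean of 7 genes driven by ERK, the kinase below RAF, was 8.0 to 8.27 at every RAF label and at most 8.26 at replicative 144 h to 624 h, but 9.38 at replicative T0 and 9.70 to 9.95 from 792 h on. ARAF, the only RAF gene with a feature of its own among 3 looked for, was at 8.1 to 8.6 on all 30 arrays. The leading principal component, with 64.2% of the variance, put 12 arrays (replicative T0 and 624 h to 2112 h) on one side and the other 18 on the other. Directions below are therefore differences between labels, and "T0" means arrays labelled T0. Whether some arrays carry exchanged labels was not tested; if they do, a rise or fall against T0 may not be a change with time in the named course. The fibroblast list (10 of 11 measured) had a mean of 8.69 to 9.87, from VIM at 11.5 to 12.1 down to LUM at 4.6 to 8.9 and S100A4 at 5.1 to 6.8. The defining epithelial genes EPCAM and CDH1 were at 3.7 to 4.0 and 4.7 to 4.9, but KRT18, KRT8 and KRT19 of the same list were at 8.2 to 9.4, 7.6 to 8.4 and 6.2 to 7.3, and CD68 of the leukocyte list at 9.4 to 10.9. The epithelial list (9 of 9 measured) had a mean of 5.94 to 6.27, the endothelial list (8 of 8) 5.34 to 5.66, the leukocyte list (5 of 7) 5.82 to 6.32 and the smooth muscle list (5 of 5) 6.46 to 7.36. In the endothelial list TEK was at 6.7 to 8.9, CLDN5 at 6.6 to 6.8 and TIE1 at 5.8 to 7. PECAM1, CDH5, VWF, KDR and ERG of that list were at 5.7 or below. In bulk RNA, fewer cells of a type and less RNA per cell cannot be told apart.

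All levels below are the deposited values, read as log2 and rounded to steps of 0.1, so that a difference of 1 is a change by a factor of 2 if that base is right. A difference passed the test at a limma adjusted p under 0.05 over all 52329 features, and "rose" and "fell" are used only for members that passed. The module was uneven. The group means of 15 of the 44 members (34.1%) spanned at least 1 log2 unit over the 15 labels, against 20.9% of all features, yet the median span of the members was 0.45 against 0.60 for all features. The widest spans belonged to the inhibitors SFRP1 (2.75) and DKK1 (2.05), the receptor FZD7 (1.80), the inhibitors DKK2 and DKK3 (1.75 each), and the ligands WNT16 (1.65) and WNT5A (1.55). LRP6 (1.40), FZD9 and FZD4 (1.20 each), FZD1 (1.15), FRZB (1.10), and LRP5, FZD2 and WNT2 (1.0 each, at the threshold) followed. The nearest member outside it spanned 0.80. Of the 29 members below 1 unit, the 16 ligands spanned 0.15 to 0.75, the 3 receptors 0.15 to 0.80, the 5 inhibitors 0.20 to 0.55, the 4 R-spondins 0.15 to 0.30 and AXIN2 0.30.

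**Figure D1:**
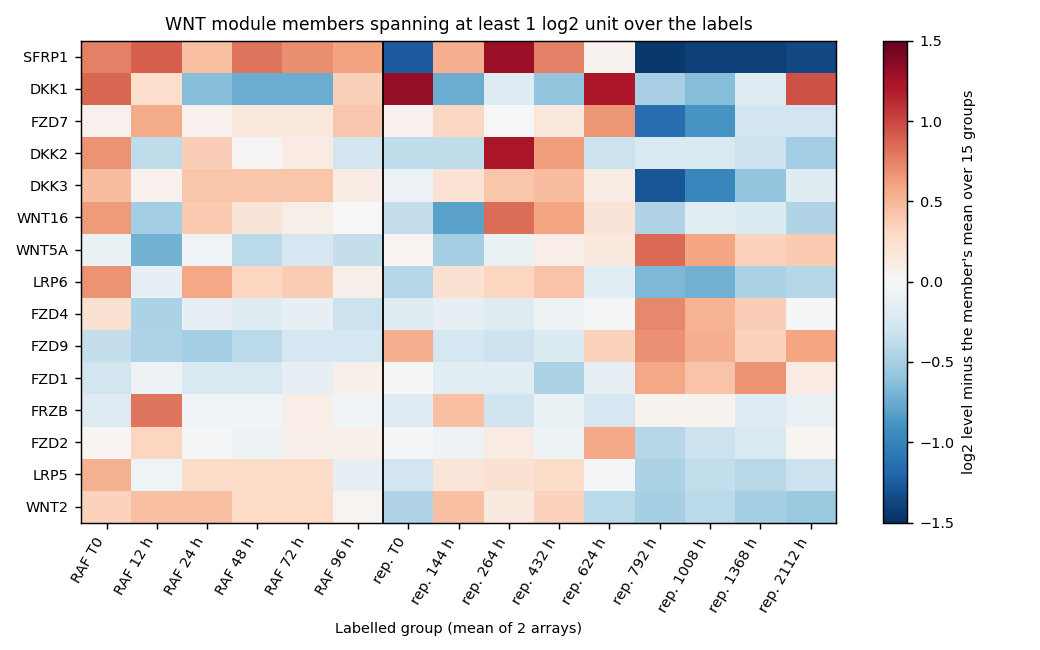
The 15 members whose group means span at least 1 log2 unit, as the group mean of 2 arrays minus the member's mean over the 15 labelled groups (colour scale from -1.5 to 1.5 log2 units). Columns are the labels, RAF left of the line and replicative right of it; SFRP1 is low at replicative T0 and from 792 h on, while DKK1 is high at both T0 labels, at replicative 624 h and at 2112 h.

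In the joint test over each course, 12 members differed among the 6 RAF labels, where 19.6% of all features did. Among the 9 replicative labels 32 members differed, with 74.2% of all features. Over all 15 labels 35 members passed, with 80.5% of all features. The 9 that did not pass were the ligands WNT3, WNT3A, WNT8A and WNT10A, the receptor FZD5, the inhibitor SFRP5 and the R-spondins RSPO1, RSPO3 and RSPO4. AXIN2, often used as a readout of beta-catenin activity, was between 5.4 and 5.7 on all 30 arrays.

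The upstream windows of WNT16, FZD4 and DKK1 are shown because these members are among those that fell at RAF 96 h and each holds a match to a searched motif. They were chosen after their values were seen. RefSeq start sites (GRCh38.p14) matched 30 of the 44 members, with 33 windows of the 250 bases before a start. The motifs were searched on both strands: AP-1 (TGANTCA), the TCF/LEF core (CTTTGA), the TATA box (TATAAA) and the CCAAT box (CCAAT). In the order given they lay in 6.57%, 11.2%, 10.7% and 32% of 35116 such windows of all genes, and in 0, 1, 2 and 12 of the 33 member windows. Capitals mark matches, read 5′ to 3′ on the strand of the gene, and the last base printed is the one before the start. The DKK1 window, at chr10:52314031-52314280 on the plus strand, holds the TCF/LEF core beginning 149 (in reverse) and 95 bases before the start, and a TATA box at 30. The WNT16 window, at chr7:121328750-121328999 on the plus strand, holds CCAAT at 126 and 75. The FZD4 window, at chr11:86955396-86955645 on the minus strand, holds it in reverse at 75. A match describes letters only.
DKK1: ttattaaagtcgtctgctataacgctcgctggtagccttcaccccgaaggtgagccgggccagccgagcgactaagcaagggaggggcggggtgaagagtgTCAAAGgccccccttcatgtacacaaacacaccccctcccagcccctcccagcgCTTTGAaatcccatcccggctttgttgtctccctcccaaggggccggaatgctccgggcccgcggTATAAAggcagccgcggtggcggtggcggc
WNT16: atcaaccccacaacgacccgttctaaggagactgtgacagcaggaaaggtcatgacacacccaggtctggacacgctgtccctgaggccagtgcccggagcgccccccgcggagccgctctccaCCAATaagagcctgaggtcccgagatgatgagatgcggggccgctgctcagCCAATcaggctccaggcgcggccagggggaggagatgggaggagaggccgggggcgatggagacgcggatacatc
FZD4: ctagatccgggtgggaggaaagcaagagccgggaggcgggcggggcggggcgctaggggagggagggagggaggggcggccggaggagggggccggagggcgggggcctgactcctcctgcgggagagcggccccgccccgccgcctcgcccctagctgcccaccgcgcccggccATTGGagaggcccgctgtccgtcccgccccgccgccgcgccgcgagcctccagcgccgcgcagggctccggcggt

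Of the ligands, 3 spanned at least 1 unit. WNT16 on the RAF arrays was at 9.1 and 8.9 (T0), 7.8 and 7.9 (12 h), 8.7 and 8.8 (24 h), 8.6 and 8.5 (48 h), 8.5 and 8.4 (72 h), and 8.3 and 8.4 (96 h). On the replicative arrays it was at 8.0 and 8.0 (T0), 7.5 and 7.6 (144 h), 9.2 and 9.2 (264 h), 9.0 and 8.9 (432 h), 8.6 and 8.5 (624 h), 7.9 and 7.9 (792 h), 8.2 and 8.2 (1008 h), 8.1 and 8.2 (1368 h), and 7.9 and 7.9 (2112 h). The replicative 264 h and RAF T0 labels thus held the highest group means, and replicative 144 h the lowest. WNT5A, which acts mainly without beta-catenin, was between 8.4 and 9.2 over the 12 RAF arrays, lowest at 12 h (8.5 and 8.4). On the replicative arrays it was at 9.2 and 9.2 (T0), 8.6 and 8.7 (144 h), 8.9 and 9.2 (264 h), 9.3 and 9.2 (432 h), 9.3 and 9.3 (624 h), 10.0 and 10.0 (792 h), 9.8 and 9.7 (1008 h), 9.5 and 9.5 (1368 h), and 9.6 and 9.5 (2112 h). The 8 arrays labelled 792 h to 2112 h lay above every other array, RAF arrays included. WNT2, a ligand of lung mesenchyme, split the arrays the other way. It was 5.7 to 6.3 over the 18 arrays of the RAF labels and replicative 144 h to 432 h, and 5.1 to 5.3 on the other 12 (replicative T0 and 624 h to 2112 h).

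Among the other ligands, WNT9A was at 7.5 to 7.6 on the 6 arrays labelled 792 h to 1368 h and at 6.9 to 7.1 on the RAF and replicative 144 h to 432 h arrays. WNT7B was at 6.1 to 6.3 and 5.5 to 5.8 in the same sets. WNT5B was at 6.9 on both RAF T0 arrays and at 7.1 or above on the other RAF arrays, with 7.3 on both at 96 h. The 16 ligands with spans under 1 unit ranged from 3.9 to 7.9 over all arrays. No background call could be made for these features, so a low and flat value cannot be told from an absent transcript.

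Among the receptors, the coreceptors LRP5 and LRP6 ran alike. LRP6 was at 8.9 and 8.8 (RAF T0), 8.1 and 8.0 (12 h), 8.7 and 8.8 (24 h), 8.6 and 8.4 (48 h), 8.6 and 8.5 (72 h), and 8.3 and 8.2 (96 h). On the replicative arrays it was 7.7 to 7.8 at T0, 8.4 to 8.6 at 144 h to 432 h, 8.0 at 624 h and 7.4 to 7.8 from 792 h on. LRP5 was at 8.3 on both arrays at RAF T0, 7.6 to 7.7 at 12 h and 96 h together, 8.0 to 8.1 at 24 h to 72 h, 7.9 to 8.1 at replicative 144 h to 432 h, and 7.3 to 7.5 at replicative T0 and from 792 h on. For both coreceptors, no array labelled 792 h to 2112 h was above the higher replicative T0 array, and all 8 were below every RAF array.

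FZD7, a receptor for beta-catenin-dependent signals, was at 7.6 to 8.2 over the RAF arrays, with the highest values at 12 h (8.2 and 8.1). On the replicative arrays it was at 7.6 and 7.7 (T0), 7.9 and 7.9 (144 h), 7.5 and 7.7 (264 h), 7.7 and 7.8 (432 h), 8.3 and 8.2 (624 h), 6.4 and 6.5 (792 h), 6.6 and 6.8 (1008 h), 7.2 and 7.4 (1368 h), and 7.3 and 7.3 (2112 h). The step from 624 h to 792 h thus joined its highest and lowest group means. FZD4 was at 6.8 to 7.3 at 792 h to 1368 h, where FZD7 was low, and at 5.9 to 6.8 on the RAF and replicative 144 h to 432 h arrays. FZD1 was at 7.2 to 7.7 at 792 h to 1368 h and at 6.3 to 6.9 on those 18 arrays. FZD9 split like WNT2 but in the opposite direction, at 5.5 to 6.0 on the 18 arrays and at 6.3 to 6.9 on the other 12. FZD2 stood out at 624 h, with 9.1 and 9.2, and was at 8.1 to 9.0 elsewhere.

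The inhibitors held the widest changes of the module. SFRP1, which binds WNT ligands outside the cell, was at 10.4 to 11.2 over the 12 RAF arrays. On the replicative arrays it was at 9.0 and 8.9 (T0), 10.7 and 10.8 (144 h), 11.4 and 11.6 (264 h), 10.8 and 11.1 (432 h), 10.2 and 10.3 (624 h), and between 8.7 and 8.9 on all 8 arrays from 792 h to 2112 h. It was thus at 9.0 or below on exactly the 10 arrays where the ERK-driven genes averaged 9.34 to 9.96, and at 10.2 or above on the other 20, where they averaged at most 8.31. The part of ERK output in the level of SFRP1 was not tested.

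DKK1, which blocks LRP5 and LRP6 and whose upstream window is printed above, followed another pattern. On the RAF arrays it was at 8.0 and 7.8 (T0), 7.2 and 7.4 (12 h), 6.3 and 6.5 (24 h), 6.2 and 6.4 (48 h), 6.3 and 6.3 (72 h), and 7.5 and 7.3 (96 h). On the replicative arrays it was at 8.4 and 8.3 (T0), 6.1 and 6.5 (144 h), 6.7 and 7.0 (264 h), 6.4 and 6.5 (432 h), 8.2 and 8.3 (624 h), 6.6 and 6.5 (792 h), 6.4 and 6.4 (1008 h), 6.8 and 6.9 (1368 h), and 8.0 and 8.0 (2112 h). The replicative labels with DKK1 at 8.0 or above (T0, 624 h and 2112 h) were those with mitotic genes at 7.87 to 8.47, and DKK1 did not exceed 7.0 at the other 6. RAF 12 h and 96 h had both high too, but RAF T0 had DKK1 at 7.8 to 8.0 with the lowest mitotic genes of the course. The part of cell division in the level of DKK1 was not tested.

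**Figure D2:**
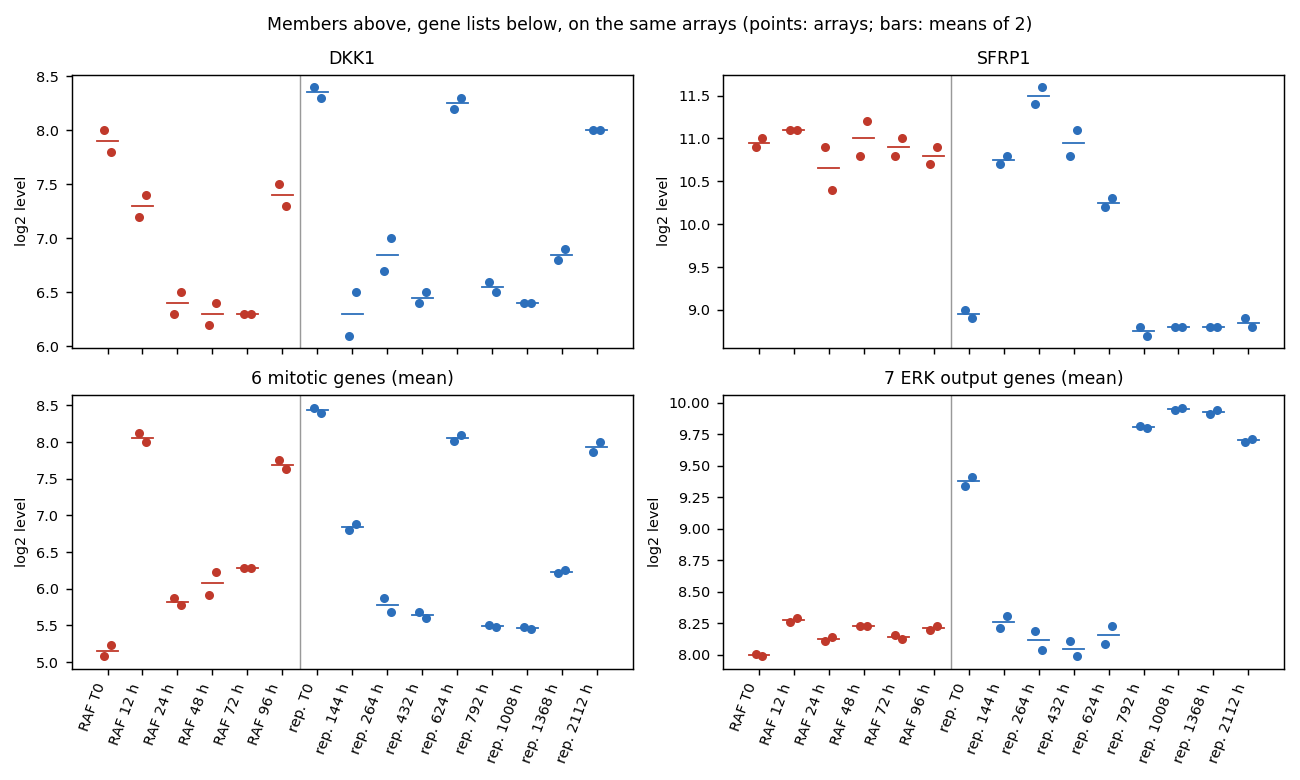
Log2 levels of DKK1 and SFRP1 (top) on the 30 arrays by label, above the mean log2 level of 6 mitotic genes and of 7 ERK-driven genes on the same arrays (bottom). Points are arrays and bars are means of 2, red for RAF labels and blue for replicative labels; DKK1 and the mitotic genes are both high at replicative T0, 624 h and 2112 h but part at RAF T0, and SFRP1 is at 9.0 or below where the ERK-driven genes are at 9.34 or above.

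DKK2, a paralogue of DKK1, was at 6.2 and 6.1 (RAF T0), 5.0 and 5.2 (12 h), 5.8 and 5.9 (24 h), 5.6 and 5.4 (48 h), 5.6 and 5.6 (72 h), and 5.2 and 5.2 (96 h). In the replicative course it was at 6.7 on both arrays at 264 h and 6.1 on both at 432 h, and at 4.9 to 5.3 at every other label. DKK2 and WNT16 thus shared their highest labels (replicative 264 h, with RAF T0 next). DKK3, a divergent family member whose action on WNT signals is less settled, was at 10.6 to 11.1 over the RAF arrays and 10.5 on both replicative T0 arrays. It was at 9.3 and 9.3 (792 h), 9.6 and 9.6 (1008 h), 10.0 and 10.0 (1368 h), and 10.4 and 10.4 (2112 h), so that each later label of these lay above the one before it without overlap. FRZB was at 5.7 and 6.0 at RAF 12 h and 5.5 and 5.5 at replicative 144 h, and at 4.7 to 5.2 elsewhere. The other 5 inhibitors (DKK4, SFRP2, SFRP4, SFRP5 and WIF1) lay between 3.4 and 6.3, and the 4 R-spondins between 3.6 and 6.6.

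**Figure D3:**
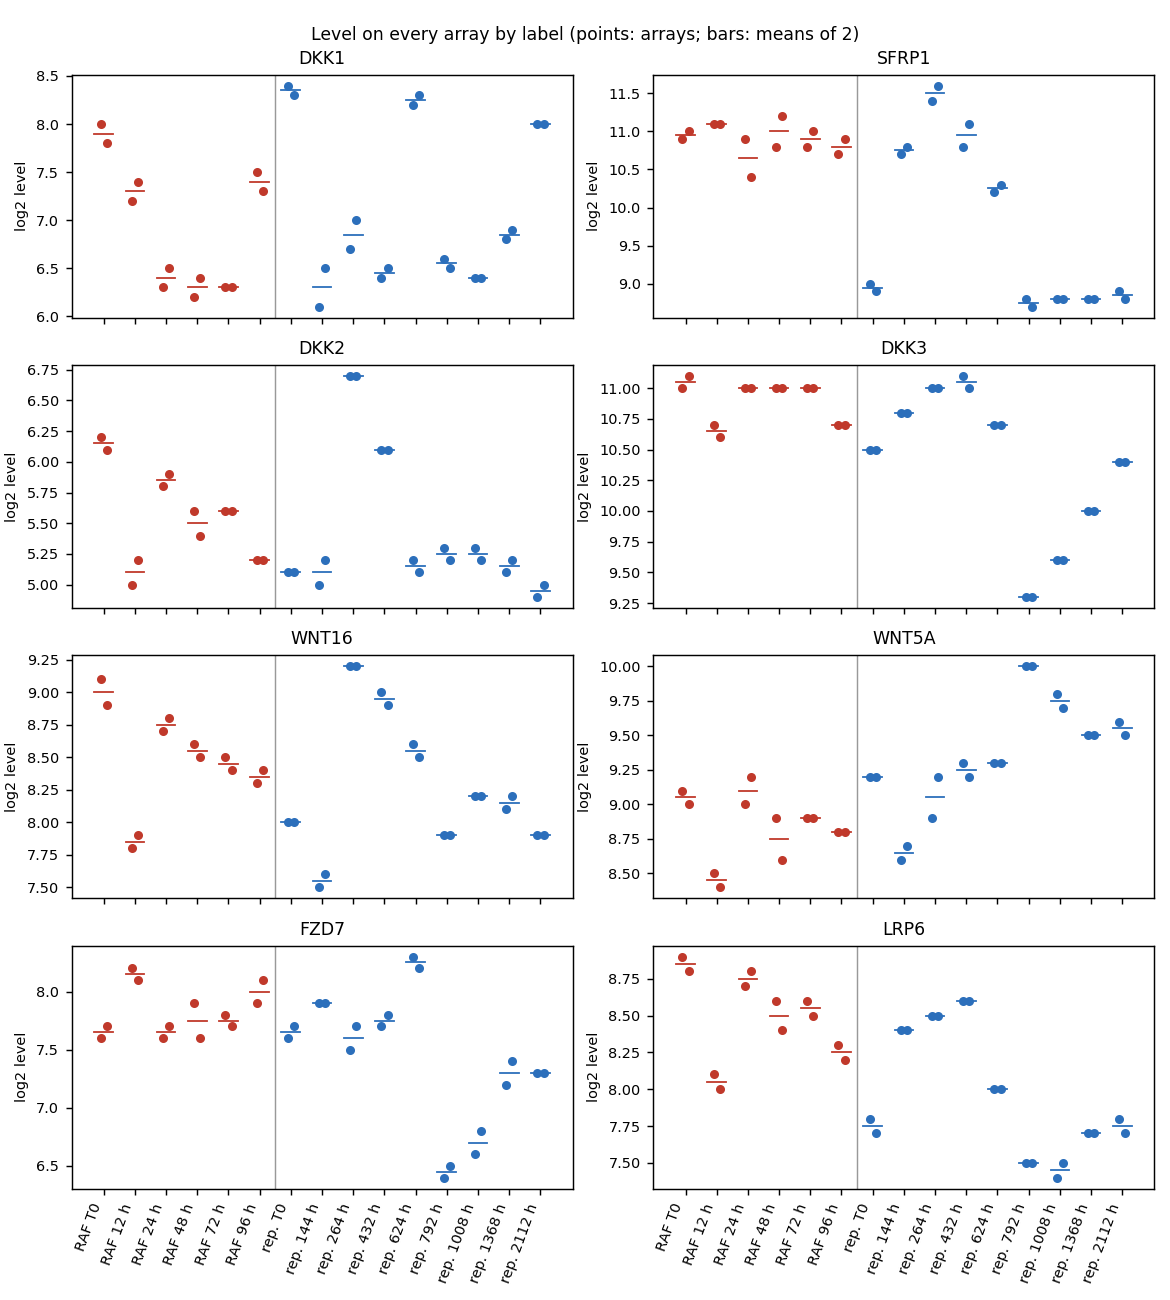
Log2 level on each of the 30 arrays for DKK1, SFRP1, DKK2, DKK3, WNT16, WNT5A, FZD7 and LRP6. Points are arrays, bars are means of 2, red is RAF and blue is replicative, and each panel has its own vertical scale; DKK3 and FZD7 are lowest at replicative 792 h, the label where WNT5A is highest.

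The RAF endpoint asks how the module stood at the last RAF label, 96 h. At 96 h against T0, 8 members fell and 2 rose, with 7.97% of all features higher and 7.71% lower. The median difference was 0 over the members and 0 over all features. The inhibitors DKK2 (by 0.95 ± 0.09, SE, n = 2 per group; adjusted p = 0.000343), DKK1 (by 0.50 ± 0.12; adjusted p = 0.0257) and DKK3 (by 0.35 ± 0.05; adjusted p = 0.00222) fell. Both coreceptors fell, LRP5 by 0.65 ± 0.06 (adjusted p = 0.000363) and LRP6 by 0.60 ± 0.08 (adjusted p = 0.00222), as did the receptors FZD4 by 0.55 ± 0.09 and FZD6 by 0.35 ± 0.07 (adjusted p = 0.005 and 0.0127). Of the ligands, WNT16 fell by 0.65 ± 0.08 (adjusted p = 0.00156) and WNT5B rose by 0.40 ± 0.04 (adjusted p = 0.000595). FZD1 rose by 0.35 ± 0.09 (adjusted p = 0.0305). In each of these 10 the arrays of the 2 labels did not overlap. That adds no support, since the test itself picked them, and the share of all features without overlap was not counted. FZD7 (0.35), SFRP1 (-0.15), WNT5A (-0.25) and AXIN2 (-0.15) did not pass.

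Several of these calls rested on the T0 label or on 1 array. RAF T0 had the lowest mitotic genes of its course. Against RAF 12 h in place of T0, a comparison chosen after seeing the data, 2 members passed at 96 h: WNT16 rose by 0.50 ± 0.08 and FRZB fell by 0.85 ± 0.09 (adjusted p = 0.0192 and 0.00557), with 2.4% of all features higher and 2.52% lower. The signs of DKK1 (0.10), DKK2 (0.10), DKK3 (0.05), FZD4 (0.15), FZD6 (0.05) and LRP6 (0.20) then turned, with no call. Against T0, DKK1 lost its call without RAF 96 h replicate 2 or T0 replicate 1, FZD6 without either 96 h array or T0 replicate 1, and FZD1 without any of the 4 arrays. Their differences stayed within -0.60 to -0.40, -0.40 to -0.30 and 0.30 to 0.40 in these omissions.

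Along the way, 12 members passed at 12 h (3 rose and 9 fell, with 9.7% of all features higher and 9.73% lower). FRZB rose by 1.0 ± 0.09 (adjusted p = 0.000194), FZD7 by 0.50 and WNT5B by 0.25. WNT16 fell by 1.15 ± 0.08 (adjusted p = 6.73e-05), DKK2 by 1.05, LRP6 by 0.80, FZD4 by 0.70, DKK1, LRP5 and WNT5A by 0.60 each, and DKK3 and FZD6 by 0.40 each. Without 12 h replicate 1 or T0 replicate 1, DKK1 (-0.70 to -0.50 over omissions) and FZD7 (0.45 to 0.55) lost their calls. At 24 h DKK1 fell by 1.5 ± 0.12 (adjusted p = 0.00119) and WNT5B rose by 0.20, with 2.64% of all features higher and 3.26% lower. The call of WNT5B at 24 h, 48 h and 72 h, 0.20 each time, was lost without any of the 4 arrays compared.

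At 48 h 1 member rose (WNT5B) and 6 fell, with 3.96% of all features higher and 4.35% lower. DKK1 fell by 1.60 ± 0.12 (adjusted p = 0.000531), DKK2 by 0.65, WNT16 by 0.45, FZD4 by 0.40, LRP6 by 0.35 and LRP5 by 0.25. Only DKK1 and DKK2 kept their calls in each of 4 omissions, and without RAF 48 h replicate 2 those 2 were the only calls. At 72 h 1 rose (WNT5B) and 4 fell, with 4.34% of all features higher and 4.47% lower: DKK1 by 1.60 ± 0.12 (adjusted p = 0.000437), DKK2 and WNT16 by 0.55 each, and LRP5 by 0.25. Only DKK1 kept its call at 72 h in each of 4 omissions. DKK1 was thus the member that fell at each of the 5 later RAF labels, by less at 12 h and 96 h, the labels with the highest mitotic genes. Medians over the members lay between -0.05 and 0.03 at 12 h to 72 h, and over all features at 0.

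**Figure D4:**
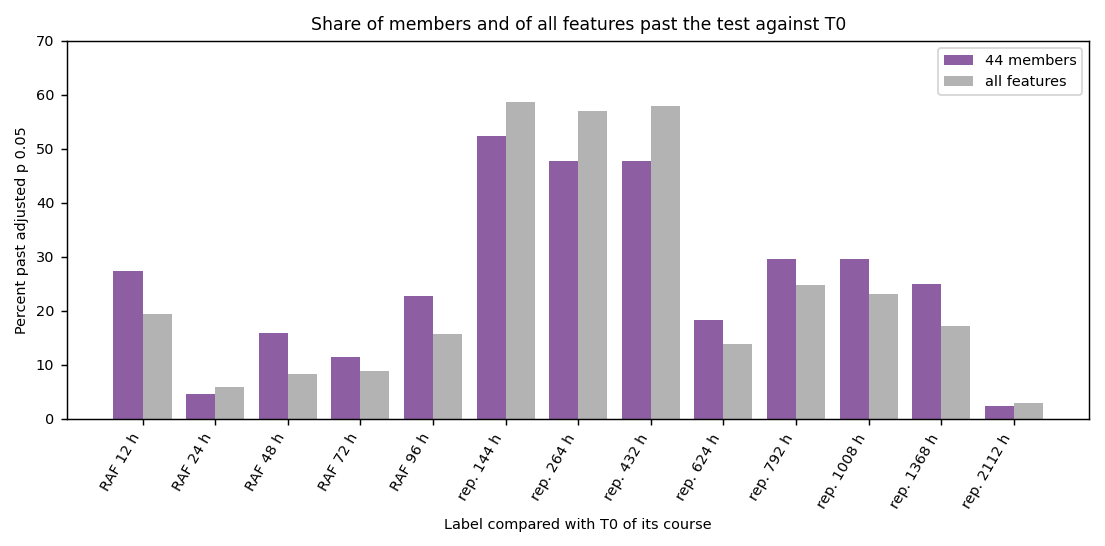
Percent of the 44 members (purple) and of all 52329 features (grey) past a limma adjusted p of 0.05 against T0 of the same course, for each of 13 later labels, higher and lower calls together. The members' share was 52.3% at replicative 144 h and 2.27% at replicative 2112 h, and in both the share of all features was the larger of the pair. The same held at RAF 24 h and replicative 264 h and 432 h, while at the other labels the members' share was the larger (22.7% at RAF 96 h). Whether the shares differ was not tested.

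The replicative endpoint asks how the module stood after the whole course. At 2112 h against T0, WNT5A alone rose, by 0.35 ± 0.08 (adjusted p = 0.0459), and no member fell in limma, with 1.34% of all features higher and 1.46% lower. At an unadjusted p under 0.05, 8 of the 44 members passed. The share of all features at that unadjusted threshold was not counted, so no excess can be read from it. The call of WNT5A was lost without any of the 4 arrays (0.30 to 0.40), with all 30 arrays in 1 model and with the replicate number as a block. FZD7 (-0.35, adjusted p = 0.0681) fell instead under the block (adjusted p = 0.0352), and fell beside WNT5A with a trended robust prior and among bright features alone (adjusted p = 0.0403 and 0.0333). The widest other differences were those of DKK1 (-0.35, 95% interval -0.61 to -0.09) and FZD7 (interval -0.55 to -0.15). SFRP1 (-0.10, -0.31 to 0.11), LRP6 (0.00, -0.11 to 0.11) and AXIN2 (0.00, -0.12 to 0.12) did not pass. Mitotic and ERK-driven genes were high at both labels.

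Between these ends the members moved widely. At 144 h 10 rose and 13 fell (30.1% of all features higher and 28.6% lower), at 264 h 10 rose and 11 fell (30.4% and 26.5%), and at 432 h 11 rose and 10 fell (31.2% and 26.8%). These 3 labels lie on the other side of the leading component from T0, and the members' shares were below those of all features. SFRP1 rose by 1.80, 2.55 and 2.00 at the 3 labels in turn (SE 0.09; adjusted p = 3.58e-08, 1.55e-09 and 1.11e-08), LRP6 by 0.65, 0.75 and 0.85, LRP5 by 0.45, 0.50 and 0.55, WNT2 by 0.90, 0.60 and 0.80, FZD10 by 0.70, 0.60 and 0.40, and DKK3 by 0.30, 0.50 and 0.55. DKK1 (-2.05, -1.5 and -1.9, SE 0.12; adjusted p = 7.59e-08, 8.38e-07 and 1.12e-07) and FZD9 (-0.80, -0.85 and -0.75) fell.

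WNT16 changed sides between these labels. It fell by 0.45 ± 0.06 at 144 h (adjusted p = 3.01e-05) and rose by 1.20 ± 0.06 at 264 h and 0.95 ± 0.06 at 432 h (adjusted p = 9.47e-09 and 6.15e-08). DKK2 had no call at 144 h (0.00) and rose by 1.60 ± 0.07 and 1.0 ± 0.07 at the later labels (adjusted p = 7.82e-09 and 3.67e-07). At 144 h FRZB rose by 0.65 and WNT5A fell by 0.55, calls made at neither 264 h nor 432 h. Mitotic genes were at 6.84 at 144 h and at 5.78 and 5.64 at the later labels. The remaining calls were of 0.45 or less. WNT1, WNT5B, WNT7B, WNT10B and WNT11 fell and WNT6 and WIF1 rose at each of the 3 labels, and FZD1 fell by 0.45 at 432 h (-0.55 to -0.35, lost without T0 replicate 2). AXIN2 fell by 0.15 at 264 h and 0.20 at 432 h. At 144 h SFRP2 fell by 0.40 and WNT9B by 0.20, and FZD7 rose by 0.25; at 264 h DKK4 fell by 0.30, WNT7A by 0.20 and RSPO4 by 0.15. FZD6 fell by 0.20 at 144 h and rose by 0.25 at 432 h, and WNT9A fell by 0.25 and 0.15 at those labels. Calls lost without 1 array numbered 4 of 23 at 144 h (FZD7, SFRP2, WNT6 and WNT9B), 7 of 21 at 264 h (AXIN2, DKK4, RSPO4, WIF1, WNT5B, WNT6 and WNT7A) and 3 of 21 at 432 h (FZD1, WNT9A and WNT10B).

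At 624 h 7 members rose and 1 fell (7.17% of all features higher and 6.67% lower). SFRP1 rose by 1.30 ± 0.09 (adjusted p = 3.47e-06), FZD2 and FZD7 by 0.60 each (adjusted p = 0.000471 and 0.00086), WNT16 by 0.55 ± 0.06 (adjusted p = 4.26e-05), FZD6 by 0.30, LRP6 by 0.25 and DKK3 by 0.20, and WNT7B fell by 0.20. LRP6 lost its call without T0 replicate 2 (0.20 to 0.30 over omissions) and WNT7B without any of the 4 arrays. Both labels were high in mitotic genes, but ERK-driven genes were at 8.16 at 624 h and 9.38 at T0.

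At 792 h 5 rose and 8 fell (13.1% higher and 11.7% lower over all features), at 1008 h 6 rose and 7 fell (11.7% and 11.3%), and at 1368 h 5 rose and 6 fell (8.74% and 8.41%). DKK1 (-1.8, -1.95 and -1.5 at the 3 labels in turn, adjusted p = 2.01e-07, 1.17e-07 and 2.01e-06), DKK3 (-1.2, -0.90 and -0.50), FZD7 (-1.2, -0.95 and -0.35) and FZD6 (-0.45, -0.30 and -0.20) fell. The receptors FZD4 (by 0.90, 0.70 and 0.55) and FZD1 (by 0.60, 0.45 and 0.70) rose. So did the ligands WNT5A (by 0.80, 0.55 and 0.30), WNT7B (by 0.40, 0.30 and 0.20) and WNT9A (by 0.40, 0.30 and 0.30). LRP6 fell by 0.25 and 0.30 and FZD2 by 0.40 and 0.30 at 792 h and 1008 h, without a call at 1368 h. WNT5B fell at all 3 labels by 0.20 to 0.25, WNT3 by 0.25 at 792 h and 0.20 at 1368 h, and WNT16 rose by 0.20 at 1008 h. SFRP1 had no call at any of the 3.

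These labels and T0 share a side of the leading component and high ERK-driven genes, and differ in mitotic genes (5.49, 5.46 and 6.23 against 8.44). The smooth muscle list was lower too (6.48, 6.55 and 6.73 against 7.30), as was the fibroblast list (8.70, 8.95 and 9.19 against 9.27). The part of these differences in the calls was not tested. The calls of DKK1, DKK3, FZD4 and WNT9A held in every omission of 1 array at all 3 labels. At 792 h WNT3 lost its call without 792 h replicate 1 (-0.30 to -0.20 over omissions). At 1008 h 4 of the 13 calls were lost in some omission. They were FZD1 without 1008 h replicate 1 or T0 replicate 1 (0.35 to 0.55), FZD2 without 1008 h replicate 2 or T0 replicate 2 (-0.45 to -0.15), WNT5B without T0 replicate 1 (-0.30 to -0.20) and WNT16 without any of the 4 arrays. At 1368 h the 11 calls shrank to between 5 and 7 without any of the 4 arrays. Those of FZD6, WNT3, WNT5A and WNT7B were lost each time, at unchanged values, FZD7 without 1368 h replicate 1 or T0 replicate 2 (-0.45 to -0.25) and WNT5B without 1368 h replicate 1 or T0 replicate 1 (-0.25 to -0.15). Over the replicative labels against T0, medians were -0.05 to 0.02 for the members and 0 to 0.05 for all features.

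The comparison of 2112 h with 144 h does not use the T0 arrays, but its labels lie on opposite sides of the leading component. ERK-driven genes were at 9.70 at 2112 h and 8.26 at 144 h, and mitotic genes at 7.94 and 6.84. The part of these in the calls was not tested. At 2112 h against 144 h 15 members rose and 11 fell, with 29.8% of all features higher and 30.9% lower, and the medians were 0 and 0. SFRP1 fell by 1.90 ± 0.09 (adjusted p = 2.26e-08), WNT2 by 1.0 ± 0.06 (adjusted p = 7.99e-08), FZD10 by 0.70, LRP6 by 0.65, FZD7 by 0.60, FRZB by 0.55, LRP5 by 0.50 and DKK3 by 0.40. DKK1 rose by 1.70 ± 0.12 (adjusted p = 3.1e-07), WNT5A by 0.90 ± 0.08 (adjusted p = 2.82e-06), FZD9 by 0.85, SFRP2 by 0.55, WNT9A by 0.40, and WNT16 and DKK4 by 0.35 each. WNT1, WNT7A, WNT7B and FZD1 rose by 0.30 each, WNT10B and WNT11 by 0.25 each and WNT5B by 0.20, and WNT6 fell by 0.25 and WIF1 by 0.20. Of the 26 calls, 22 held in each of 4 omissions of 1 array; those of DKK4 (0.25 to 0.45), FZD1 (0.25 to 0.35), RSPO1 (-0.15, from -0.20 to -0.10) and WNT9B (0.15, from 0.10 to 0.20) did not. The 2112 h arrays of SFRP1 (8.9 and 8.8) overlapped those of replicative T0 (9.0 and 8.9), while those of DKK1 (8.0 and 8.0) lay below its T0 arrays (8.4 and 8.3).

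**Figure D5:**
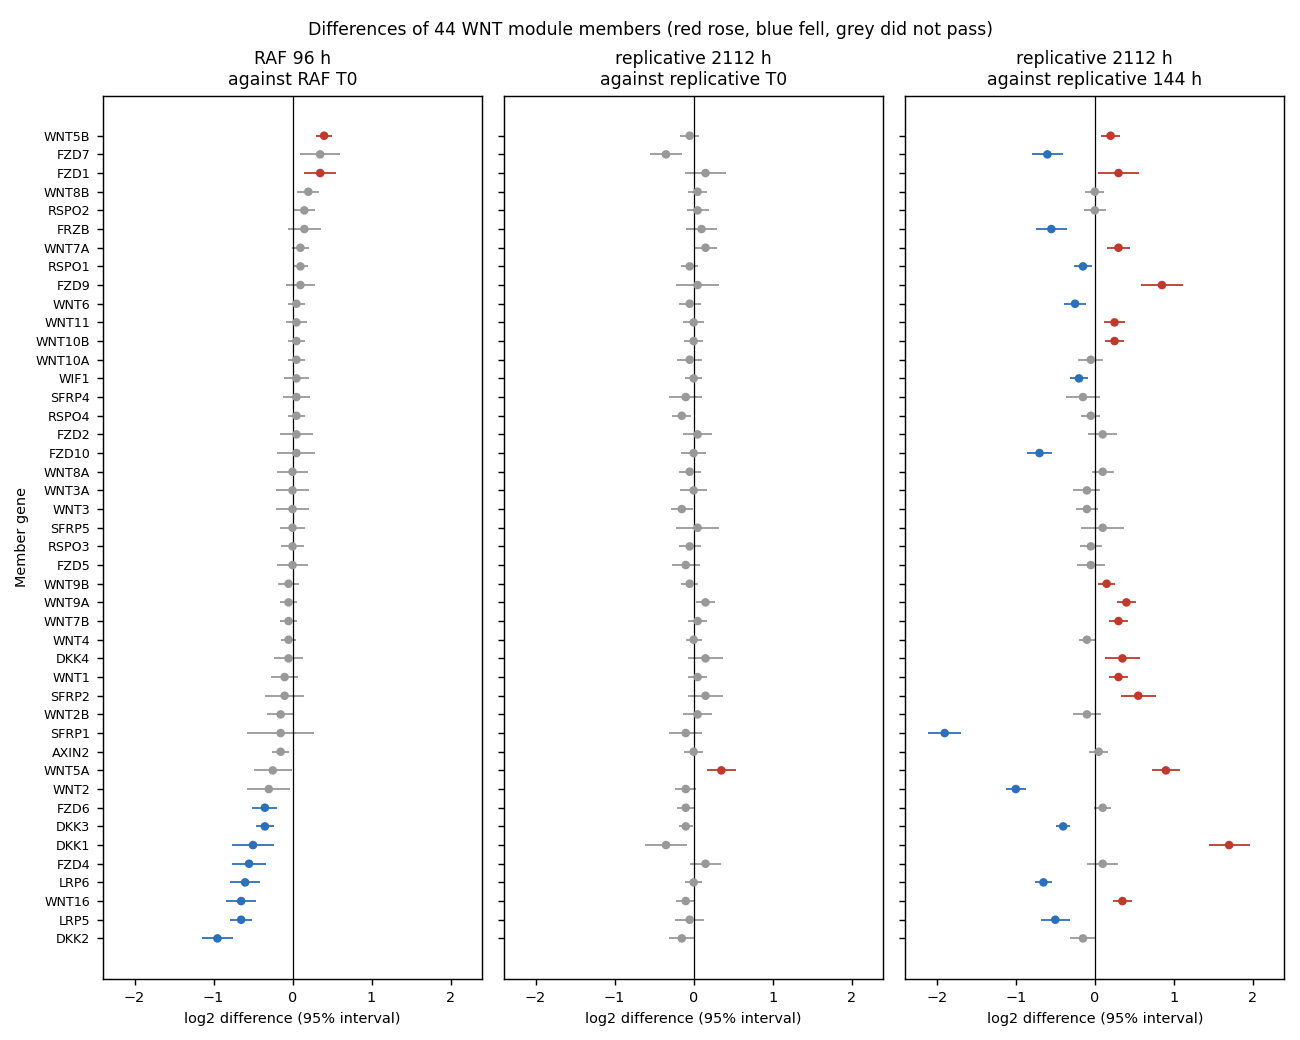
Log2 differences of the 44 members with 95% intervals from limma, with a panel each for the RAF endpoint, the replicative endpoint and replicative 2112 h against 144 h. Red members rose, blue fell and grey did not pass at an adjusted p of 0.05; 10 members are coloured on the left, WNT5A alone in the middle and 26 on the right, with SFRP1 (-1.90) and DKK1 (1.70) farthest from 0.

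A wide step lay between the neighbouring labels 432 h and 624 h, a comparison chosen with earlier results known. At 624 h against 432 h 12 members rose and 10 fell, with 21.1% of all features higher and 24.4% lower, and a median of 0.05 over the members against 0 over all features. DKK1 rose by 1.80 ± 0.12 (adjusted p = 4.62e-07), FZD2 by 0.65, FZD9 by 0.55 and FZD7 by 0.50, while DKK2 fell by 0.95 ± 0.07 (adjusted p = 1.49e-06), WNT2 by 0.75, SFRP1 by 0.70, LRP6 by 0.60, WNT16 by 0.40 and DKK3 by 0.35. The other calls were smaller. FZD1 rose by 0.35, SFRP2 by 0.30, WNT1 and WNT11 by 0.25 each, WNT7A by 0.20, and AXIN2, WNT5B and WNT10B by 0.15 each, while LRP5 and FZD10 fell by 0.30 each, WNT6 by 0.25 and WIF1 by 0.15. Without 432 h replicate 1 or 624 h replicate 1 the 22 calls shrank to 14. The 10 calls lost in some omission (such as FZD1, 0.30 to 0.40, and SFRP2, 0.25 to 0.35) did not include DKK1 and DKK2. Mitotic genes were at 5.64 at 432 h and 8.06 at 624 h.

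The effects of the 2 endpoints were compared directly in a model of all 30 arrays. The RAF difference (96 h minus T0) was above the replicative difference (2112 h minus T0) for 2 members and below it for 7, with 7% of all features above and 6.66% below, and medians of 0 for members and all features. The RAF difference was the lower one for DKK2 (-0.80 ± 0.11, adjusted p = 5.24e-05), FZD4 (-0.70 ± 0.13), and LRP5 and LRP6 (-0.60 each). It was also the lower for WNT5A (-0.60 ± 0.13), WNT16 (-0.55 ± 0.10) and DKK3 (-0.25 ± 0.06). It was the higher for FZD7 (0.70 ± 0.14, adjusted p = 0.00194) and WNT5B (0.45 ± 0.07, adjusted p = 0.000162). These values compare changes between labels and not levels. DKK3 lost its call without RAF T0 replicate 2 (-0.30 to -0.20 over 8 omissions). DKK1 was not among them, at -0.50 in the RAF course and -0.35 in the replicative course.

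Of 94 other genes of the pathway, listed with earlier results known, 85 were measured. At RAF 96 h 10 rose and 14 fell (median -0.05), at replicative 2112 h 5 rose and 3 fell (median 0), and at 2112 h against 144 h 24 rose and 31 fell (median -0.05). Of all features, 7.97% were higher and 7.71% lower in the first comparison, 1.34% and 1.46% in the next, and 29.8% and 30.9% in the last. At RAF 96 h BICC1, an RNA-binding protein, fell by 1.20 ± 0.13, IGFBP4, which can block LRP6, by 0.85 ± 0.08, the glypican GPC4 by 0.75 ± 0.10, and BMP4 by 0.80 ± 0.07, while TPBG, a membrane protein that restrains LRP6, rose by 0.90 ± 0.08 (adjusted p = 0.000628, 0.000363, 0.00222, 0.000285 and 0.000358 in that order). GPC6 and DAAM1 fell by 0.50 each and TNFRSF19 rose by 0.50. Of 15 measured genes often induced by beta-catenin, 5 rose and 1 fell at RAF 96 h, while AXIN2 did not pass; 7.97% of all features were higher and 7.71% lower, and mitotic genes were at 7.69 against 5.16 at T0. The part of the mitotic genes in these calls was not tested. Against RAF 12 h in place of T0, 3 of the 85 genes rose and 11 fell, with 2.4% of all features higher and 2.52% lower. Of the other lists against T0, which share some genes, receptors had 1 rise and 4 falls of 15 and secreted modulators 1 and 2 of 9. The modulator list also holds the RNA-binding protein BICC1, which is among its falls. Cytoplasmic genes had 1 and 1 of 18, nuclear factors 3 and 0 of 14, the planar polarity and calcium branch 1 and 5 of 16, and WNT processing 0 and 1 of 4.

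At replicative 2112 h against T0, WLS, the carrier that brings WNT ligands to the cell surface, rose by 0.70 ± 0.05 (adjusted p = 3.96e-05), the nuclear factor LEF1 by 0.60 ± 0.08 (adjusted p = 0.00196) and TNFRSF19 by 0.55 ± 0.05 (adjusted p = 0.000195). Against 144 h WLS rose by 1.80 ± 0.05 (adjusted p = 3.26e-10), and the receptor ROR1, through which WNT5A acts, fell by 1.75 ± 0.10 (adjusted p = 6.97e-08). WNT5A itself rose in that comparison. With 29.8% of all features higher and 30.9% lower in that comparison, 10 of 18 measured cytoplasmic genes of the pathway rose and 2 fell, and 1 of 14 nuclear factors rose and 7 fell. Receptors had 2 rises and 8 falls of 15, secreted modulators 1 and 6 of 9, the planar polarity and calcium branch 4 and 5 of 16, genes often induced by beta-catenin 8 and 4 of 15, and WNT processing 2 and 0 of 4.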

How the data were processed

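Total RNA of WI-38 fibroblasts was extracted with a column kit and 100 ng of it labelled with the WT PLUS kit for Affymetrix HTA 2.0 arrays, per the labels' protocols. The authors deposited 1 processed value per feature and array (52329 features), read here as log2 from the range -1.6 to 14. How they were summarised and normalized, and their log base, is not given in the sources used here. Every array has a median of 5.5 and values are rounded to 0.1, so small differences are coarse. Partner arrays correlated at 0.9921 to 0.9969 and none was a copy of its partner. Groups follow the labels, which list more replicative hours than the design text. In the probe annotation 21055 features have a single symbol, 1406 several and 29868 none.

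Tests were two-sided in limma (version 3.58.1, under R 4.3.3, with data.table version 1.17.8), in 1 model per course (12 or 18 arrays, 6 or 9 residual degrees of freedom) or of all 30 arrays (15 residual degrees of freedom) for the endpoint comparison. P-values were adjusted over all features by Benjamini-Hochberg, with a threshold of 0.05. The scripts were tested on simulated data. With 2 arrays a group, the number of arrays limits the precision. Figures and promoter searches used Python 3.11.15 with pandas 2.3.3 and matplotlib 3.10.9.

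Members, gene lists and tests were chosen with earlier results of these data known. Members got values by label where group means spanned at least 1, and in each comparison those that passed were counted and named by size, up to 25 (26 at 2112 h against 144 h). Other pathway genes were counted per list and named where they passed at an endpoint against T0 by at least 0.5. In other comparisons only some of them were named. Alternatives were 1 model of all arrays, a trended robust prior, quantile normalization, bright features only, a replicate block, each array left out, and RAF 12 h in place of T0.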

Additional observations from a re-analysis of the deposited data

Results flagged for a closer look

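For 9 members the endpoint difference of the RAF course (96 h minus T0) differed from that of the replicative course (2112 h minus T0) by a test of the difference itself, an interaction term in limma over all 30 arrays. The RAF difference, not the level, was the lower one for DKK2 (-0.80, adjusted p = 5.24e-05). DKK2 was at 5.2 on both RAF 96 h arrays against 6.2 and 6.1 at T0, and at 4.9 and 5.0 at replicative 2112 h against 5.1 and 5.1. The RAF differences of FZD4 (-0.70), LRP5 (-0.60), LRP6 (-0.60), WNT5A (-0.60), WNT16 (-0.55) and DKK3 (-0.25) were the lower ones too, with adjusted p from 0.00016 to 0.00964. For FZD7 the RAF difference was the higher (0.70, adjusted p = 0.00194), with 7.9 and 8.1 at RAF 96 h against 7.6 and 7.7, and 7.3 and 7.3 at replicative 2112 h against 7.6 and 7.7. The same held for WNT5B (0.45, adjusted p = 0.000162). Each value rests in part on the RAF T0 label, where mitotic genes were lowest; the part of that label in these differences was not tested. Groups of 2 arrays are too small to look for single outlying arrays.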

How the results depend on the processing

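Of the member differences past the test over all comparisons, 193 of 195 kept their direction and call with 1 model of all 30 arrays, 200 of 204 with a trended robust prior, 199 of 204 with quantile normalization, 175 of 175 among features above the median brightness, and 691 of 852 when 1 array was left out. Some counts of members called changed by over 1.5 times. With 1 model of all arrays the counts were 6 at RAF 24 h, 11 at 48 h, 8 at 72 h and 0 at replicative 2112 h; with the trended robust prior and, separately, among bright features alone they were 4 at RAF 24 h and 2 at replicative 2112 h. With RAF 12 h in place of RAF T0, an alternative chosen after seeing the data, the count at RAF 96 h was 2, and the differences turned sign for DKK1 (0.10), DKK2 (0.10), DKK3 (0.05), FZD4 (0.15), FZD6 (0.05), LRP6 (0.20) and WNT16 (0.50); the cause was not tested. Leaving out 1 array, which also leaves fewer arrays in the fit, gave counts of 1 at RAF 24 h, 2 to 7 at 48 h, 1 to 3 at 72 h, 5 to 7 at replicative 1368 h, 0 at 2112 h and 14 to 16 at 624 h against 432 h. Where it left a group with 1 array, that array was taken to vary like the other groups.

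Replicate numbers are shared between groups, but same-numbered arrays mostly did not deviate together, so the numbers were not taken as pairs. Over features r was from -0.06 to 0.36 (median 0.02) over 15 pairs of RAF groups, and from -0.28 to 0.31 (median 0.03) over 36 pairs of replicative groups. It was over 0.1 in 3 of the RAF pairs and 9 of the replicative pairs, and under -0.1 in 3 replicative pairs. With the replicate block 197 of 204 member differences kept their call, and WNT5A at replicative 2112 h (0.35) did not. Among other pathway genes the count at RAF 48 h was 28 among bright features against 16. No member has another feature, so a next brightest feature could not be tried. Without background calls, dim members such as the R-spondins limit what a flat value shows.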

Other observations

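Other genes of the pathway at the replicative labels 792 h to 1368 h, where mitotic genes were low and ERK-driven genes high, were not described above. At 792 h against T0, 22 of 85 rose and 15 fell, with 13.1% of all features higher and 11.7% lower. KREMEN1, a receptor for DKK proteins, rose by 1.15 ± 0.07 (SE, n = 2 per group; limma adjusted p = 1.24e-07), the nuclear factor LEF1 by 1.05 ± 0.08 (adjusted p = 7.86e-07), the corepressor TLE1 by 1.05 ± 0.06 (adjusted p = 4.76e-08) and the WNT carrier WLS by 0.95 ± 0.05 (adjusted p = 3.31e-08). DAAM1, a formin of the planar polarity branch, rose by 1.35 ± 0.08 (adjusted p = 5.82e-08), and NDP, a non-WNT ligand of FZD4, rose by 0.85 ± 0.12 (adjusted p = 0.000197). FZD4 itself rose by 0.90 at that label. The glypican GPC6 fell by 1.45 ± 0.10 (adjusted p = 3.38e-07), APC, a scaffold of beta-catenin breakdown, by 0.75 ± 0.08 (adjusted p = 1.58e-05), and LGR4, a receptor for R-spondins, by 0.60 ± 0.08 (adjusted p = 0.000108). CCND1 (by 0.65) and MYC (by 0.55), both listed as often induced by beta-catenin and both tied to the cell cycle, fell. LEF1, CCN4 (by 0.55) and BMP4 (by 0.50), on the same list, rose. Of 15 measured genes on that list, 4 rose and 3 fell. At 1008 h 22 rose and 14 fell (11.7% of all features higher and 11.3% lower), and at 1368 h 17 rose and 12 fell (8.74% and 8.41%). The part of the low mitotic genes in these calls was not tested.

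At 144 h against T0 the widest changes of the listed genes were larger than those at either endpoint. CCN4, a matricellular protein often induced by beta-catenin, rose by 2.75 ± 0.16 (adjusted p = 8.37e-08) and SERPINF1 by 2.35 ± 0.13 (adjusted p = 5.99e-08). ROR1 rose by 1.5 ± 0.10 (adjusted p = 2.61e-07) and BMP4 by 1.45 ± 0.10 (adjusted p = 2.38e-07). GPC4 rose by 1.45 ± 0.08 and TNFRSF19 by 1.35 ± 0.05 (adjusted p = 3.99e-08 and 2.9e-09). WLS fell by 1.10 ± 0.05 (adjusted p = 1.45e-08). Of 15 measured genes often induced by beta-catenin, 5 rose and 7 fell, TBX3 (by 0.90) and MYC (by 0.60) among the falls. Of all 85 genes, 34 rose and 23 fell. The leading component also separates 144 h from T0, and 30.1% of all features were higher and 28.6% lower.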
